A study of Mus musculus with 16 samples.

Results

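The expression of 9 genes of the epidermal growth factor (EGF) system was examined in mouse mammary carcinoma cells: the ligands Areg, Ereg, Hbegf, Btc, Tgfa and Nrg1, and the receptors Egfr, Erbb2 and Erbb3. They were taken by name from a table of 33072 genes, and each symbol matched 1 gene. The RNA came from 4T1 cells, a metastatic line, and from 67NR cells, a non-metastatic line, both from a spontaneous mammary carcinoma of BALB/c mice. Cells of each line had been grown in medium with serum and treated for 24 h with DMSO vehicle or with 15 µM CIX, an inhibitor of cytosolic phospholipase A2α (cPLA2α, gene Pla2g4a). Each of the 4 groups held 4 biological replicates and 16 samples were sequenced in all. Each phenotype was represented by 1 line, so that metastatic potential and cell line cannot be told apart.

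The ligands of this family are made as membrane-bound precursors and are cut free by metalloproteases, after which they act on the cell that made them or on its neighbours. Amphiregulin (Areg) and transforming growth factor alpha (Tgfa) bind Egfr, heparin-binding EGF (Hbegf), betacellulin (Btc) and epiregulin (Ereg) bind Egfr and Erbb4, and neuregulin 1 (Nrg1) binds Erbb3 and Erbb4. Erbb2 has no known ligand and is the preferred partner of the other receptors, whereas Erbb3 has a weak kinase and signals through the partner that it pairs with. In the mammary gland the system drives duct growth, and its receptors are known as drivers of breast cancer.

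Between 21715700 and 29450629 reads were assigned to genes in a sample. Values are CPM (counts scaled to library size, with TMM factors) for comparisons of 1 gene between samples, and TPM (the same kind of scaled value after division by gene length) for comparisons of level between genes. A gene was called at a limma-voom adjusted p below 0.001, and 3 counts in a library, the smallest level taken as detected, lay between 0.107 and 0.137 CPM. All 6 epithelial markers (such as Epcam, Cdh1, Krt8 and Krt18) reached a mean of 1 TPM in vehicle-treated 4T1 cells and summed to between 2407 and 2582 TPM. In vehicle-treated 67NR cells only Krt8 did so, and the sum lay between 1.08 and 4.32 TPM, so that the defining epithelial markers were close to absent from this carcinoma line. Of the 6 mesenchymal markers, 2 reached 1 TPM in 4T1 cells (sum 1403 to 1820 TPM) and 5 did in 67NR cells (4066 to 5090 TPM). Of the leukocyte markers, Ptprc stayed at a mean below 1 TPM in every group, whereas Cd68, which marks macrophages, averaged 96.1 TPM in vehicle-treated 4T1 and 11.6 TPM in vehicle-treated 67NR cells, and Lyz2 reached 1.57 TPM in the latter. Pecam1, which marks endothelium, stayed below 1 TPM in every group. Pla2g4a stood at 65.3, 94.4, 162 and 58.7 CPM in vehicle-treated and at 118, 107, 186 and 137 CPM in CIX-treated 4T1 cells. In 67NR cells it stood at 60.0, 81.1, 77.0 and 324 CPM with vehicle and at 107, 116, 176 and 127 CPM with CIX. Sample 13, the last of the vehicle-treated 67NR samples, stood far above the rest of its group in this gene. Values are listed in the order of the sample numbers in the labels throughout.

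Hbegf, Erbb2, Nrg1 and Btc were expressed in both lines, and the order of the members by level differed between them. In vehicle-treated 4T1 cells the highest levels were those of Areg (33.3 ± 16.0 TPM, SD, n = 4), Hbegf (30.4 ± 9.06 TPM) and Tgfa (26.0 ± 2.95 TPM), whose ranges overlapped. Erbb2 followed at 15.5 ± 2.03 TPM, apart from its neighbours on both sides. Nrg1 (8.54 TPM), Erbb3 (7.64 TPM), Egfr (4.29 TPM) and Btc (2.95 TPM) came next, each overlapping the next in that order, and Ereg was at 0. In vehicle-treated 67NR cells Hbegf (58.4 ± 6.13 TPM) and Nrg1 (44.3 ± 8.73 TPM) led with overlapping ranges. Erbb2 (17.8 TPM), Btc (14.5 TPM) and Ereg (13.2 TPM) formed an overlapping group below them. Erbb3, Egfr, Tgfa and Areg averaged between 0.190 and 0.410 TPM. In bulk RNA, fewer cells that express a gene and less RNA of it per cell cannot be told apart. After CIX the order began with Hbegf in both lines, at 58.2 ± 10.5 TPM in 4T1 and 76.8 ± 12.4 TPM in 67NR cells. Btc then took the second place in 67NR cells, at 48.4 ± 7.89 TPM, a range that lay below that of Hbegf and overlapped that of Nrg1 (35.5 ± 6.88 TPM).

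Over the 7 genes whose products bind Egfr (Areg, Ereg, Hbegf, Btc, Tgfa, Egf and Epgn), the summed level was close in the vehicle-treated lines, 93.8 ± 27.6 TPM in 4T1 and 87.8 ± 3.77 TPM in 67NR cells, and its makeup differed. In 4T1 cells Areg made up 34.3 ± 6.04% of the sum, Hbegf 32.4 ± 0.625%, Tgfa 29.0 ± 6.19% and Btc 2.97 ± 1.06%. In 67NR cells Hbegf made up 66.4 ± 4.25%, Btc 16.6 ± 3.81% and Ereg 15.1 ± 0.663%, with Areg at 0.213% and Tgfa at 0.228%. After CIX the share of Areg in 4T1 cells lay between 17.9% and 24.7%, below the 30.7% to 43.3% of the vehicle samples. The share of Hbegf there lay between 42.4% and 49.5%, above the 31.5% to 32.8% with vehicle. In 67NR cells the share of Btc after CIX lay between 31.7% and 35.2%, above the 13.1% to 20.0% with vehicle. These shares sum to the same total by construction, so that a higher share of 1 ligand lowers the others.

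**Figure D1:**
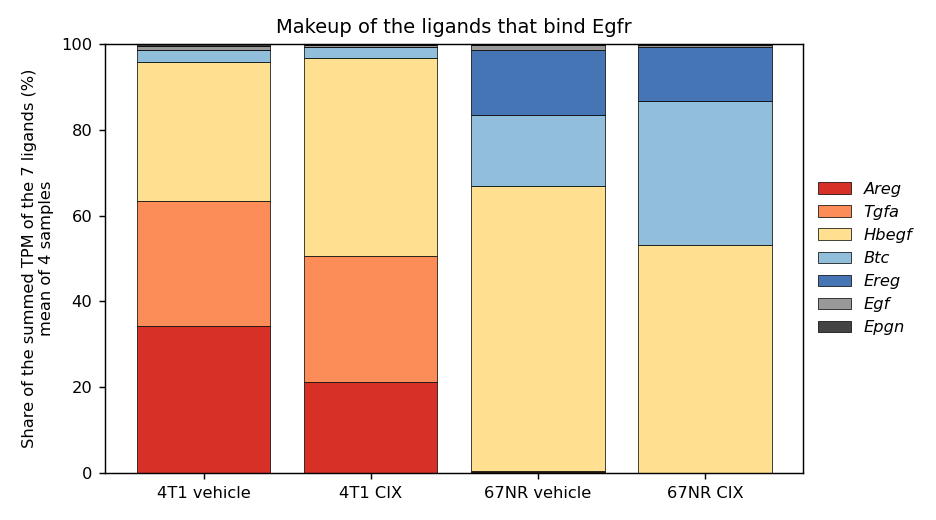
Stacked bars give the mean share (%) of each of 7 ligand genes in their summed TPM, in 4 samples per group. The red and orange parts (Areg and Tgfa) fill 34.3% and 29.0% of the vehicle-treated 4T1 bar and under 1% of the 67NR bars, where the blue parts (Btc and Ereg) appear.

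Members that differed between the lines in opposite directions lay in a cluster of ligand genes on chromosome 5 of the GRCm38 mouse genome, where Ereg (91074622 to 91093646), Areg (91139599 to 91148432) and Btc (91357261 to 91402994) lie near each other, with Epgn (epigen) at 91027464 to 91035215. Ereg and Areg are neighbours on the plus strand, and Btc lies on the minus strand. The 250 bases before the RefSeq start of Areg (chr5:91139349-91139598, plus strand) and of Btc (chr5:91402995-91403244, minus strand) are shown because these genes lie in the same cluster and differed between the lines in opposite directions. Those of Tgfa (chr6:86194972-86195221, plus strand) are shown because Tgfa shared the pattern of Areg. Capitals mark matches to the cAMP response element TGACGTCA, to the AP-1 site TGANTCA or to the TATA box TATAAA, searched on both strands in 250 bases before and 50 after the start.
Areg: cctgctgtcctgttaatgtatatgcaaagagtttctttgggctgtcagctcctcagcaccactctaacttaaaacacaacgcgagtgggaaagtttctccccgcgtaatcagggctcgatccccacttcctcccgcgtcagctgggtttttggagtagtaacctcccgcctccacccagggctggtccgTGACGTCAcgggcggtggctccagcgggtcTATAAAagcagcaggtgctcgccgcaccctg
Btc: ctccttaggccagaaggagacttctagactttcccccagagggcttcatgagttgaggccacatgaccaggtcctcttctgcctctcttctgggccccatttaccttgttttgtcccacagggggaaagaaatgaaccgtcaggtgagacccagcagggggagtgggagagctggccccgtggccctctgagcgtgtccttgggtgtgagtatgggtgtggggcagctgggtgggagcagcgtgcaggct
Tgfa: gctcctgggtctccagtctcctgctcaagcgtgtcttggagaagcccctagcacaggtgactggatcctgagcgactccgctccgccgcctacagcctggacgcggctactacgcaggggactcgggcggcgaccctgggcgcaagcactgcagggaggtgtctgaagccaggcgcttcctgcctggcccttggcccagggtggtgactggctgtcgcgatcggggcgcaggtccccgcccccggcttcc
The Areg promoter held the cAMP response element, which begins 61 bases before the start and overlaps no other match, and a TATA box 31 bases before it. The first motif occurs in 1.79% and the second in 13.6% of the 32851 mouse promoters of the same length, and the AP-1 site in 7.81%. None of the 3 motifs was found in these windows of Btc, Tgfa, Egfr and Erbb2. The sequences are those of RefSeq (GRCm38.p6), and the promoters of 5 of the 9 genes were examined by name. Ereg, Hbegf, Nrg1 and Erbb3 were not among them, so that nothing is said here of motifs in their promoters. A match describes the sequence and does not show that a factor binds there.

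Areg was expressed in 4T1 cells and close to the detection floor in 67NR cells. It stood at 51.7, 22.9, 19.2 and 27.7 CPM in vehicle-treated and at 41.1, 19.0, 19.7 and 27.3 CPM in CIX-treated 4T1 samples. Vehicle-treated 67NR samples held 3, 9, 4 and 2 counts of Areg in all (0.0850 to 0.400 CPM), and CIX-treated ones 1, 4, 4 and 3 counts. The lines did not overlap, whereas the treatments did in each line. Because the filter kept only genes that passed 1 TPM in both lines, Areg was tested between the lines without it. There its log2 fold change, 4T1 against 67NR with vehicle, was 7.25 (standard error, SE, 0.75, limma-voom adjusted p = 1.52e-05), and in that fit 14.5% of 22724 genes were called higher in 4T1 cells.

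Ereg, the neighbour of Areg, had the reverse distribution. All 8 samples of 4T1 cells held 0 counts. The vehicle-treated 67NR samples stood at 42.2, 43.4, 43.2 and 45.9 CPM and the CIX-treated ones at 53.2, 58.5, 60.3 and 65.6 CPM. With vehicle, Ereg was therefore at least 333-fold higher in 67NR than in 4T1 cells, taking 3 counts per library as the limit in 4T1, and with CIX at least 462-fold higher. The CIX samples lay above all vehicle samples in 67NR cells, with a log2 fold change of 0.42 (SE 0.08, limma-voom adjusted p = 0.00956) that was not called. Of the 31-base words in the Ereg transcript, 0.146% also occur in another gene, and of those in Areg 0%.

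Btc had the largest change after CIX among the members tested, in 67NR cells. With vehicle it stood at 28.7, 19.5, 19.6 and 28.5 CPM there, and with CIX at 67.6, 92.1, 72.5 and 89.2 CPM. Every CIX sample lay above every vehicle sample, and Btc rose 3.32-fold (log2 fold change 1.73, SE 0.17, limma-voom adjusted p = 9.08e-04). In 4T1 cells it stood at 7.62, 2.40, 2.37 and 5.87 CPM with vehicle and at 9.01, 5.58, 3.36 and 5.51 CPM with CIX, and these groups overlapped (log2 fold change 0.42, SE 0.44, adjusted p = 0.458). With vehicle Btc was lower in 4T1 than in 67NR cells, with a log2 fold change of -2.56 (SE 0.37, adjusted p = 2.11e-04). The call after CIX in 67NR cells was close to the threshold: edgeR gave an adjusted p of 0.00111, and it was called in 0 of 8 fits with a sample removed, although the log2 fold change stayed between 1.64 and 1.83 and the adjusted p below 0.05 in all 8. The fourth gene of the cluster, Epgn, averaged between 0.111 and 0.308 CPM in the 4 groups.

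**Figure D2:**
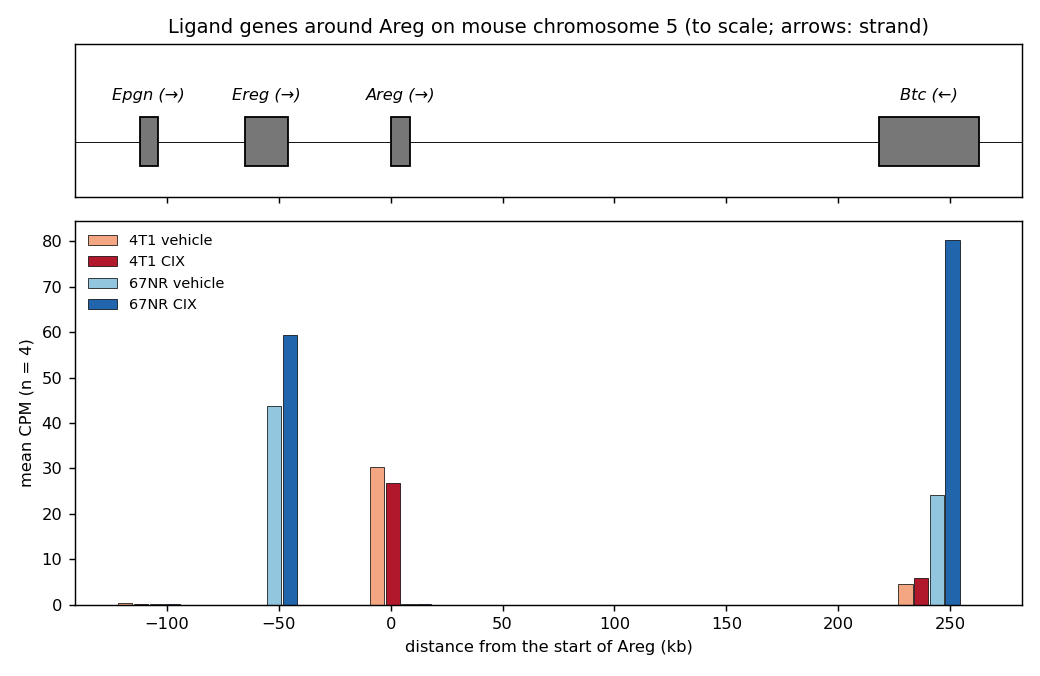
The upper strip draws Epgn, Ereg, Areg and Btc to scale by their distance (kb) from the start of Areg, with arrows for the strand. The lower bars, set side by side at the middle of each gene, give its mean CPM in the 4 groups (n = 4). Ereg shows bars in 67NR only and Areg visible bars in 4T1 only, while Btc reaches 80.4 CPM in CIX-treated 67NR cells.

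Tgfa, which lies on chromosome 6 (86195223 to 86275719), followed the pattern of Areg between the lines. In 4T1 cells it stood at 39.0, 38.7, 34.5 and 41.8 CPM with vehicle and at 78.7, 55.6, 45.8 and 56.4 CPM with CIX. The groups did not overlap, and the log2 fold change of 0.57 (SE 0.16, limma-voom adjusted p = 0.0195) was not called. In 67NR cells 3 of the vehicle samples held 1 to 4 counts and sample 9 held 26 counts (1.03 CPM), while CIX samples held 0 to 2 counts. In the fit without the filter, the value for 4T1 against 67NR cells with vehicle was 7.60 on the log2 scale (SE 0.56, adjusted p = 1.30e-06).

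Hbegf, on chromosome 18 (36504927 to 36515805), was expressed in all groups. It stood at 60.4, 38.3, 30.8 and 44.0 CPM in vehicle-treated and at 111, 77.0, 76.8 and 90.6 CPM in CIX-treated 4T1 cells. No CIX sample fell among the vehicle samples, and the log2 fold change of 1.04 (SE 0.20) had a limma-voom adjusted p of 0.00332, which was not called. DESeq2, which called 26.5% of all tested genes, called it (adjusted p = 3.55e-05), and with a sample removed the values ranged from 0.89 to 1.22. In 67NR cells Hbegf stood at 84.7, 97.4, 91.4 and 81.5 CPM with vehicle and at 95.2, 127, 114 and 132 CPM with CIX. There the lowest CIX sample lay among the vehicle samples, and the log2 fold change was 0.37 (SE 0.11, adjusted p = 0.0437). With vehicle, Hbegf was lower in 4T1 than in 67NR cells (log2 fold change -1.08, SE 0.18, adjusted p = 5.80e-04), a call kept in 2 of 8 fits with a sample removed and that edgeR did not make (adjusted p = 0.00115).

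Nrg1, the ligand of Erbb3 on chromosome 8 (31814551 to 32884029), was the neuregulin with the highest level per length in both lines. In 4T1 cells it stood at 14.7, 10.8, 20.8 and 7.55 CPM with vehicle and at 21.5, 14.7, 21.8 and 20.0 CPM with CIX. In 67NR cells it stood at 63.6, 64.5, 67.0 and 99.3 CPM with vehicle and at 48.6, 73.1, 62.5 and 51.6 CPM with CIX. The lines did not overlap, and with vehicle Nrg1 was lower in 4T1 cells by a log2 fold change of -2.53 (SE 0.29, limma-voom adjusted p = 4.74e-05). CIX and vehicle overlapped in both lines, with log2 fold changes of 0.61 (SE 0.28, adjusted p = 0.105) in 4T1 and -0.33 (SE 0.19, adjusted p = 0.254) in 67NR cells. Without sample 13, the high vehicle sample of 67NR, the latter was -0.16.

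Erbb2 was the receptor with the highest level per length in all 4 groups and the member that passed the threshold after CIX in 4T1 cells. It lies on chromosome 11 (98412470 to 98437716). In 4T1 cells it stood at 34.1, 36.7, 38.5 and 43.4 CPM with vehicle and at 73.5, 58.3, 61.6 and 69.4 CPM with CIX. The groups were well apart, and Erbb2 rose 1.70-fold (log2 fold change 0.77, SE 0.12, limma-voom adjusted p = 9.46e-04). In 67NR cells it stood at 54.6, 40.3, 46.8 and 44.4 CPM with vehicle and at 39.2, 49.9, 57.0 and 54.0 CPM with CIX, which overlapped (log2 fold change 0.08, SE 0.13, adjusted p = 0.742). As for Btc, the call lay at the threshold: edgeR gave an adjusted p of 0.00101 and DESeq2 one of 6.32e-08, and it was called in 0 of 8 fits with a sample removed, with values between 0.69 and 0.83. Between the vehicle-treated lines Erbb2 differed by a log2 fold change of -0.29 (SE 0.12, adjusted p = 0.0469), which was below 0.05 in 2 of 8 fits with a sample removed. With all samples the adjusted p ranged from 0.0266 to 0.0819 over the alternatives, and without sample 1 the log2 fold change was -0.19 (adjusted p = 0.191). Mien1 overlaps Erbb2 on the opposite strand and averaged 53.3 CPM in vehicle-treated and 41.8 CPM in CIX-treated 4T1 cells. The libraries kept the strand, and whether the counting used it is not given in the sources used here.

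Erbb3, the partner of Erbb2 that binds neuregulins (chromosome 10, 128567523 to 128589652), stood at 22.3, 31.8, 43.9 and 40.2 CPM in vehicle-treated and at 62.2, 64.3, 60.0 and 68.6 CPM in CIX-treated 4T1 cells. The treatments did not overlap, and the log2 fold change of 0.91 (SE 0.19) had a limma-voom adjusted p of 0.00407, which was not called. DESeq2 called it (adjusted p = 1.32e-04). In 67NR cells Erbb3 stood at 1.58, 1.96, 2.42 and 1.91 CPM with vehicle and at 2.62, 3.51, 4.74 and 3.83 CPM with CIX. These low values did not overlap either, and without the filter the log2 fold change was 0.86 (SE 0.24, adjusted p = 0.0614). Between the vehicle-treated lines it was 4.06 (SE 0.33, adjusted p = 2.74e-06, without the filter), higher in 4T1 cells.

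Egfr, the receptor of Areg, Tgfa, Hbegf, Btc and Ereg (chromosome 11, 16752203 to 16918158), was the receptor of the 3 with the lowest level per length in 4T1 cells. There it stood at 11.8, 8.77, 3.53 and 13.7 CPM with vehicle and at 15.0, 15.1, 6.91 and 13.1 CPM with CIX. Samples 11 and 12 were the lowest of their groups, and the groups overlapped (log2 fold change 0.47, SE 0.42, limma-voom adjusted p = 0.393). In 67NR cells Egfr held 0, 41, 4 and 10 counts with vehicle, the highest being 1.82 CPM, and 0 to 2 counts with CIX. Without the filter, the log2 fold change between the vehicle-treated lines was 5.21 (SE 1.06, adjusted p = 0.00194), which was not called although the lines did not overlap. The ligands expressed in 67NR cells that bind Egfr thus stood beside an Egfr level of at most 0.784 TPM.

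**Figure D3:**
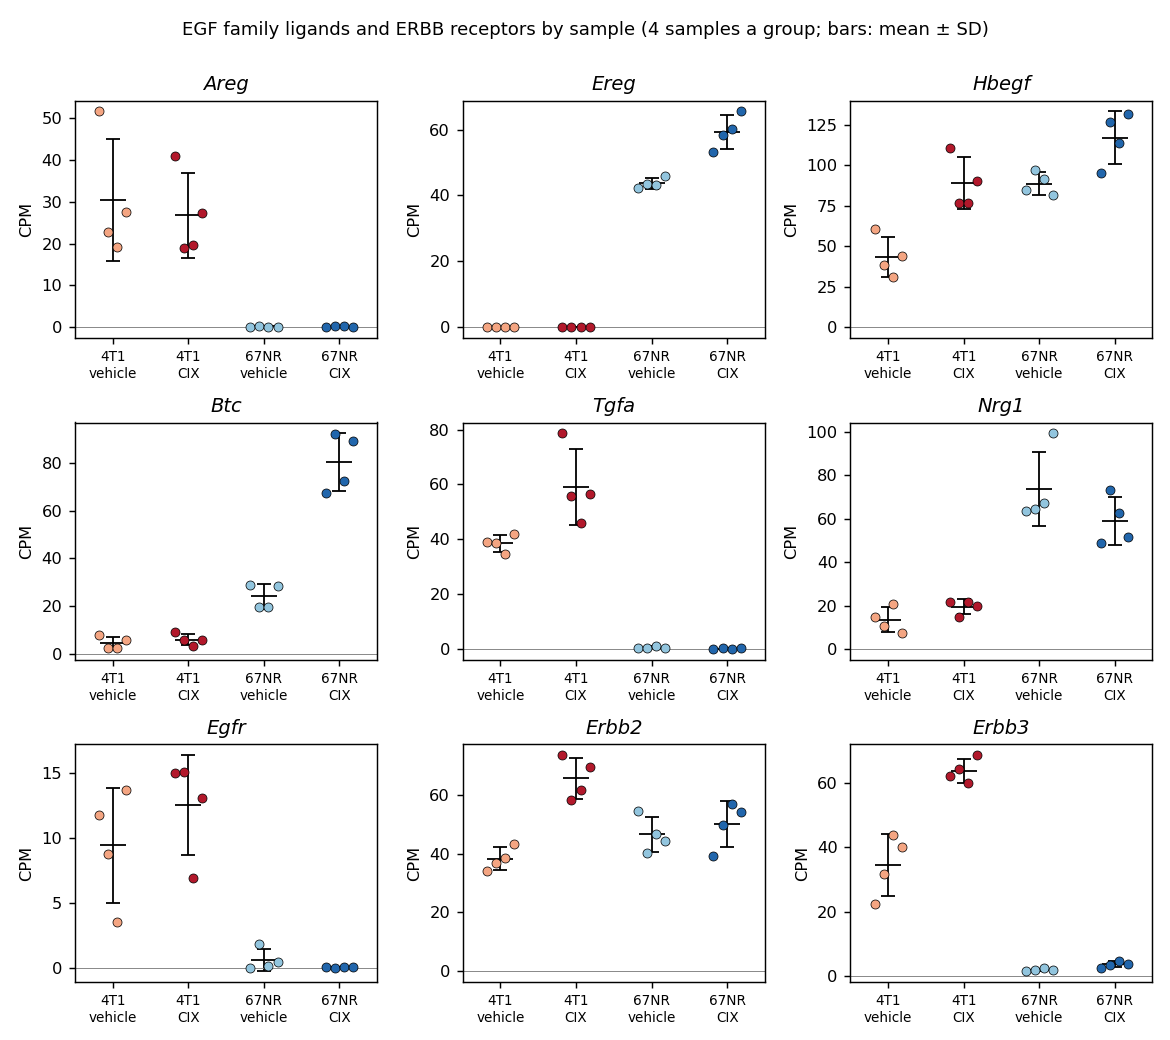
Each panel gives 1 gene, with the CPM of every sample as a point (linear axis, 4 samples per group) and the group mean ± SD as bars. Areg, Tgfa, Egfr and Erbb3 are high in the red 4T1 groups and near 0 in the blue 67NR groups, Ereg the reverse. The dark CIX points lie above all pale vehicle points for Hbegf, Tgfa, Erbb2 and Erbb3 in 4T1 and for Ereg, Btc and Erbb3 in 67NR.

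Over the 9 genes, the comparison of CIX with vehicle gave 1 called gene in each line. In 4T1 cells 8 of the 9 genes were tested (Ereg was at 0), and Erbb2 was called higher and none lower. Over all 11664 tested genes 9.32% were called, 5.34% higher and 3.98% lower. An adjusted p below 0.05 was reached by Hbegf, Tgfa, Erbb2 and Erbb3, all higher, against 42.7% of all tested genes. The same 4 had groups that did not overlap, against 39.9% of all tested genes. The exact two-sided permutation test of each gave p = 0.0286, the smallest that 4 against 4 samples allow. The median log2 fold change of the 8 genes was 0.59, and that of all tested genes -0.01.

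In 67NR cells 5 of the 9 genes passed the filter, and Btc was called higher and none lower. Of all 11566 tested genes 0.389% were called, 0.182% higher and 0.208% lower. Ereg, Hbegf and Btc had an adjusted p below 0.05, all higher, against 17.8% of all tested genes. Hbegf stayed below 0.05 in 1 of 8 fits with a sample removed, the one without sample 2 (adjusted p = 0.00846), and was above it in the common fit of all 16 samples (0.136), without the filter (0.0670), with filterByExpr (0.0555) and without scaling beyond library size (0.0730). Ereg and Btc had groups that did not overlap, against 23.3% of all tested genes. The median log2 fold change of the 5 tested genes was 0.37 and that of all tested genes -0.01. Levels of cell type markers differed with CIX as well. The 6 epithelial markers summed to between 2418 and 2516 TPM in CIX-treated 4T1 cells, within the range of the vehicle samples, although Epcam stood at 315 ± 3.13 CPM with vehicle and 186 ± 11.9 CPM with CIX and Krt19 at 70.9 ± 11.7 and 114 ± 13.6 CPM. In CIX-treated 67NR cells this sum lay between 0.656 and 3.02 TPM. The summed mesenchymal markers, chiefly Vim and Fn1, lay between 2620 and 3107 TPM in CIX-treated 4T1 cells (2 of 6 at 1 TPM, Cdh2 and Col3a1 at 0) and between 6555 and 7409 TPM in CIX-treated 67NR cells (5 of 6), in both lines above the vehicle samples. The leukocyte list, in which Cd68 was the only gene above 1 TPM in all groups, summed to between 72.0 and 118 TPM with vehicle and 173 and 264 TPM with CIX in 4T1 cells, and to between 11.1 and 17.8 TPM and 47.2 and 53.4 TPM in 67NR cells. The higher sums were those of Cd68, whereas Ptprc averaged 1.22 CPM with vehicle and 0.497 CPM with CIX in 4T1 cells, and Lyz2 1.66 and 0.981 CPM in 67NR cells. The basal list summed to at most 0.890 TPM with vehicle and 4.17 TPM with CIX in 4T1 cells, where Krt14 averaged 0.548 and 2.33 CPM, and the endothelial list to at most 1.37 TPM in every group. The part of these markers in the changes of the EGF family genes was not tested.

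**Figure D4:**
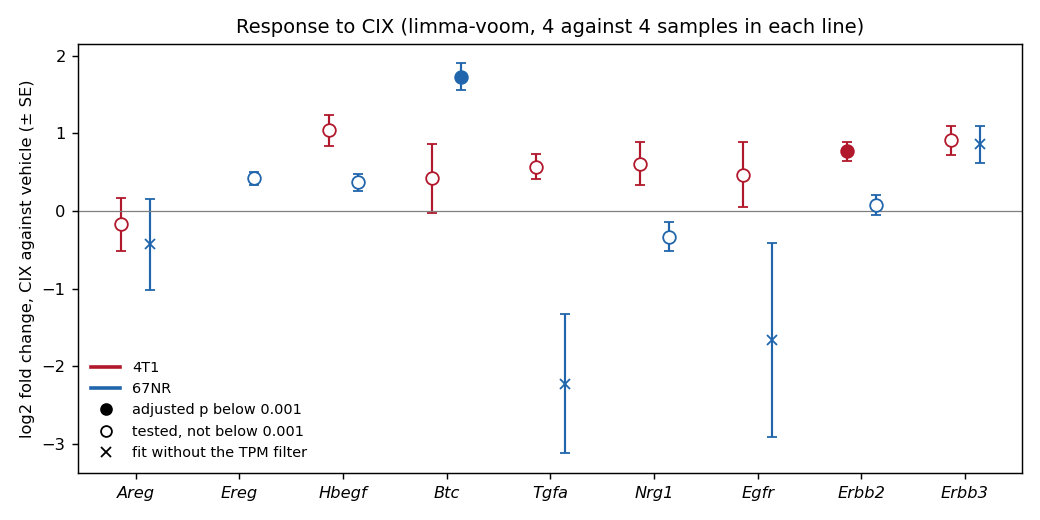
Points give the log2 fold change of CIX against vehicle for each gene in 4T1 (red) and 67NR cells (blue), with bars of 1 standard error. Filled circles passed an adjusted p below 0.001, open circles were tested and did not, and crosses come from the fit without the filter on low values. Only Erbb2 in 4T1 (0.77) and Btc in 67NR cells (1.73) are filled.

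Whether the response to CIX differed between the lines was tested with an interaction term. None of the 9 genes was called by limma-voom, edgeR or DESeq2, while 7.86% of 12613 tested genes were by limma-voom and 15.7% by DESeq2, the former being 4.80% with a higher and 3.06% with a lower response in 4T1 cells. At an unadjusted p below 0.05 there were 5 of them, beside 39.1% of all tested genes. Ereg held 0 counts in 4T1 cells, so that it had no measurable response there. Areg, Tgfa, Egfr and Erbb3 averaged below 1 TPM in 67NR cells and passed the filter through 4T1 cells only. For these genes the lack of a call does not show equal responses. The difference was 0.69 on the log2 scale for Erbb2 (SE 0.18, limma-voom adjusted p = 0.00975), with the larger response in 4T1 cells. It was -1.32 for Btc (SE 0.46, adjusted p = 0.0418), with the larger response in 67NR cells, 0.67 for Hbegf (SE 0.24, adjusted p = 0.0484) and 0.94 for Nrg1 (SE 0.34, adjusted p = 0.0498). These 4 were below 0.05, as were 29.3% of all tested genes. With a sample removed, Erbb2 stayed below 0.05 in all 16 fits, Btc in 7, Hbegf in 4 and Nrg1 in 3, and edgeR gave 0.0699 for Hbegf and 0.0842 for Nrg1. The difference of Tgfa was the largest in size, 2.82 (SE 1.03, adjusted p = 0.0509), and rests on the few counts of 67NR cells given above. Under the other settings with all samples its adjusted p ranged from 0.0052 (DESeq2) to 0.0608 (no scaling beyond library size). It was below 0.05 in 5 of 16 fits with a sample removed, and without sample 9 the difference was 1.99 (adjusted p = 0.130). For Erbb3 it was 0.06 (SE 0.40, adjusted p = 0.932), a value whose sign turned with edgeR (-0.012). So the calls of Erbb2 in 4T1 and of Btc in 67NR cells did not, at the threshold of 0.001, amount to a called difference between the lines.

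Between the vehicle-treated lines, 4 of the 9 genes passed the filter, and Hbegf, Btc and Nrg1 were called lower in 4T1 cells and none higher. Of the 11044 tested genes 40.0% were called, 20.4% higher and 19.6% lower in 4T1 cells, and 67.4% had an adjusted p below 0.05, as did all 4 members tested, Erbb2 only narrowly as given above. Groups that did not overlap were seen in 61.6% of all tested genes and in 3 of these 4 members, the exception being Erbb2. The 5 members that the filter left out did not overlap between the lines either, and have no background of the same kind. In the fit without the filter, which called 14.5% of genes higher and 14.0% lower in 4T1 cells, Areg, Tgfa and Erbb3 were called higher and Ereg lower. These genes differed in the same samples in which the epithelial and mesenchymal marker sums given above did, and the part of that difference in theirs was not tested.

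The other 6 genes of the family were low in most groups. Nrg2 was the exception, a neuregulin that stood at 17.2, 17.5, 18.9 and 14.3 CPM in vehicle-treated 67NR cells and at 0.659, 0.524, 0.946 and 0.534 CPM in vehicle-treated 4T1 cells. It was lower in 4T1 cells by a log2 fold change of -4.67 (SE 0.23, limma-voom adjusted p = 4.24e-07). After CIX it stood at 1.78, 2.06, 1.82 and 1.05 CPM in 4T1 cells, above all vehicle samples but not called (log2 fold change 1.28, SE 0.32, adjusted p = 0.0101), and it averaged 18.3 CPM in 67NR cells. Egf averaged between 1.02 and 2.08 CPM in the groups and Nrg4 between 0.307 and 0.680 CPM, and neither passed the filter. Nrg3 held at most 2 counts in a sample. Erbb4, the fourth receptor, held 0 counts in all 16 samples, which allows up to 0.137 CPM, so that Erbb3 was the receptor for neuregulins with reads in these cells.

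Around the receptors, 84 genes in 7 lists were followed: the other family members, the proteases and regulators that shed ligands, adaptors, inhibitors and sorting proteins of the receptors, the RAS-ERK cascade, the PI3K-AKT branch, and immediate early genes with their transcription factors. In 4T1 cells 77 were tested, and 3 of them rose and 3 fell after CIX, beside 9.32% of all tested genes that were called, so that the count was near the background. Their median log2 fold change was -0.03, beside -0.01 for all tested genes. The number of list genes called was 4 with edgeR and 15 with DESeq2, which called 26.5% of all tested genes. With sets of consecutive sample numbers as a covariate it was 3. Among 12 tested genes of the PI3K-AKT branch, Pik3r3, a regulatory subunit of PI3K, fell from 18.8 ± 3.77 to 4.81 ± 1.25 CPM (log2 fold change -2.01, SE 0.24, limma-voom adjusted p = 3.24e-04). Pik3ca, which encodes the catalytic subunit p110α, fell from 130 ± 14.6 to 70.7 ± 11.8 CPM (log2 fold change -0.91), while Pik3cd, the p110δ subunit, rose from 6.73 ± 2.04 to 17.5 ± 2.73 CPM (1.38). In the RAS-ERK cascade of 13 genes, 1 was called higher and 1 lower, and the median log2 fold change was 0.29. At a limma-voom adjusted p below 0.05, 7 of them were higher and 3 lower. The gene called lower was Map2k1, which encodes the ERK kinase MEK1 and fell from 167 ± 11.9 to 102 ± 13.5 CPM (-0.73). Ubash3b, a phosphatase gene of the list of receptor inhibitors and sorting proteins, rose from 11.5 ± 1.88 to 24.5 ± 3.13 CPM (1.08). None of the 7 tested shedding genes, 14 adaptors or 13 immediate early and transcription genes was called in 4T1 cells. When samples were removed in turn, Pik3r3 was called in 3 of 8 fits, Ubash3b in 0 and each of the others in 1.

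In 67NR cells 0 of the 71 tested list genes were called by limma-voom or edgeR and 10 by DESeq2, beside 9.00% of all tested genes by DESeq2, and 24 had an unadjusted p below 0.05, beside 32.8%. The median was 0.11, beside -0.01 for all tested genes. The response differed between the lines in 5 of 77 list genes, beside 7.86% of all tested genes. Among these, it was lower in 4T1 cells for Pik3r3 (-2.17 on the log2 scale, SE 0.31, limma-voom adjusted p = 1.25e-04), Pik3ca (-1.02, SE 0.17) and Sh3kbp1, an adaptor of receptor endocytosis (-0.88, SE 0.13). It was higher in 4T1 cells for 2 genes of the RAS-ERK cascade. The calls of Pik3r3 and Sh3kbp1 were kept in each of 16 fits with a sample removed, and that of Pik3ca in 10.

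Between the vehicle-treated lines 12 of 70 tested list genes were called higher and 14 lower in 4T1 cells, beside 20.4% and 19.6% of all tested genes, with a median log2 fold change of 0.02. The 10 with the largest change included the immediate early genes Ier3 (1068 ± 152 CPM in 4T1 and 167 ± 7.80 CPM in 67NR cells, log2 fold change 2.66) and Junb (253 ± 27.4 and 41.1 ± 5.40 CPM, 2.62), which were higher in 4T1 cells. Jun (79.0 ± 9.33 and 380 ± 25.1 CPM, -2.28) and Fosl1 (99.7 ± 26.6 and 234 ± 15.3 CPM, -1.27), which encode other subunits of AP-1, were lower there. Rhbdf2, which encodes a rhomboid-like protein that brings the sheddase Adam17 to the cell surface, was higher in 4T1 cells (95.9 ± 21.4 and 21.8 ± 3.60 CPM, 2.12). Cblb, a ubiquitin ligase that acts on activated receptors, was higher (57.9 ± 6.81 and 16.0 ± 1.56 CPM, 1.84), as was Pik3r3 (18.8 and 7.71 CPM, 1.29). The RAS exchange factor gene Sos2 (58.2 and 133 CPM, -1.22) and Nrg2 were lower in 4T1 cells. Among these 10 genes the call of Pik3r3 was kept in 2 of 8 fits with a sample removed, and the calls of the other 9 in all 8.

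The gene whose profile over the 16 samples was most like that of each member was sought by Pearson correlation of log2(CPM + 1) among the genes tested for the interaction. These values describe the 16 samples and share the difference between the lines, so that they carry no test. The highest was Layn for Ereg (r = 1.000), followed by Epha1 for Tgfa (r = 0.998), Atp9a for Areg (r = 0.997) and Cdk19 for Erbb3 (r = 0.993). Slc25a43 was closest to Egfr (r = 0.979), Ercc1 to Btc (r = 0.977), Urgcp to Nrg1 (r = 0.976) and Pgs1 to Hbegf (r = 0.973). The lowest was that of Pom121 with Erbb2 (r = 0.904), which averaged 46.1 CPM in vehicle-treated and 97.3 CPM in CIX-treated 4T1 cells and 62.1 and 59.8 CPM in 67NR cells.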

How the data were processed

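Per the paper's methods and the labels, polyadenylated RNA was sequenced from strand-specific libraries and the authors quantified it with Salmon (version 0.12 in the submitters' processing notes) against the Ensembl annotation of GRCm38. With tximport they added transcript values up per gene, and they deposited the resulting estimated counts for 33072 genes, not normalized. The submitters' notes name GRCh38, and the gene identifiers are those of the mouse.

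The estimated counts were rounded. TPM was approximated from the mean transcript length per gene (GENCODE M21), and positions were taken from the same annotation. A gene was dropped from a comparison if over 3 of its samples had a TPM under 1 (for the interaction, if so in both lines). The contrasts were CIX against vehicle within a line (8 samples), the lines with vehicle (8 samples) and the interaction (16 samples), fitted by limma-voom with TMM scaling (limma 3.58.1, edgeR 4.0.16, R 4.3.3) and Benjamini-Hochberg adjustment over all tested genes, with calls below 0.001. The method was tested on simulated data. Alternatives were edgeR's quasi-likelihood test, DESeq2 1.42.0, other scalings, filters and samples, and a threshold of 0.05. The fits without the filter for members that it left out, a filter of 1 TPM in 4 samples and a covariate for consecutive sample numbers were chosen after seeing the data.

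The 9 genes and the lists were chosen with earlier results of these data known. Named were all members in every group, all other family genes, up to 10 called list genes per comparison by size of change, and the nearest gene of each member over 16 samples. Floors cover counting error only, since reads carried no molecular identifiers. Protein sequences were not used here. Some genes of the lists are counted and not reported here by name.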

Additional observations from a re-analysis of the deposited data

Results flagged for a closer look

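Within groups of 4 samples, a sample was singled out when its gap to the nearest of the others exceeded Dixon's 95% critical value for 4 samples. Chance singles out about 1 in 20 groups, and 3 were found among the groups of the 9 genes. Nrg1 stood at 99.3 CPM in sample 13 of the vehicle-treated 67NR cells, where the others lay between 63.6 and 67.0 CPM, and the same sample was the high one for Pla2g4a. Tgfa stood at 1.03 CPM in sample 9 of the vehicle-treated 67NR cells, where the others lay between 0.0425 and 0.158 CPM. Egfr was at 0 CPM in sample 6 of the CIX-treated 67NR cells, where the others lay between 0.0770 and 0.0911 CPM, a gap of 2 counts.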

How the results depend on the processing

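After CIX in 4T1 cells, 1087 genes and 1 member were called. The numbers were 3095 and 3 with DESeq2, 2523 and 3 with sample quality weights, 2680 and 3 with all 16 samples in a common fit, and 4981 and 4 at a threshold of 0.05. With edgeR and without scaling beyond library size 0 members were called, where 4 had an unadjusted p below 0.05 by limma-voom. Leaving out a sample in turn gave 269 to 975 genes and 0 members in all 8 fits, with the most genes (975) without sample 4 and at most 723 without any other. After CIX in 67NR cells, 45 genes and 1 member were called, beside 1041 and 2 with DESeq2, 247 genes with quality weights, 151 in the common fit, and 2057 and 3 at 0.05. With edgeR and with filterByExpr 0 members were called, and leaving out a sample gave 0 to 75 genes (75 without sample 2, 16 without sample 13, at most 2 without any other) and 0 members, where 3 had an unadjusted p below 0.05. For the difference of the responses, 992 genes became 1980 with DESeq2, 1913 with quality weights and 3699 at 0.05, where 4 members passed. Leaving out a sample gave 654 to 1050 genes, the fewest without sample 7. Between the lines 4419 genes became 7449 at 0.05, and 3 members became 7 without the filter, with filterByExpr and with 1 TPM in 4 samples, since these keep genes expressed in 1 line. Leaving out a sample gave 3495 to 4366 genes and 2 to 3 members, Hbegf being the gene lost. The cause of the other shifts was not tested.

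Of the members' fold changes, 653 of 712 values under an alternative kept their direction and side of the threshold. Areg in 4T1 cells was 0.13 without sample 3 in place of -0.17, and otherwise as low as -0.41. For the difference of the responses, Areg (0.29) was -0.11 without sample 5 and -0.14 without sample 2, and otherwise up to 0.58. Erbb3 (0.06) was -0.012 with edgeR and -0.013 with DESeq2, and -0.13, -0.04 and -0.10 without samples 3, 9 and 2, and otherwise up to 0.19. None of these passed a threshold.

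The labels give each sample its own number and no number that groups share, so that they pair no samples. Each 4 consecutive numbers hold 1 sample of each group, and samples of such a set correlated between treatments at 0.07 to 0.42 in 4T1 and -0.06 to 0.07 in 67NR cells in their deviations from the group means. Samples of different sets correlated at -0.28 to 0.19 in 4T1 and -0.09 to 0.11 in 67NR cells. Of the 4 vehicle samples, 3 in 4T1 and 2 in 67NR cells correlated highest with the CIX sample of their own set. With the set as a covariate, 1144 genes were called in 4T1 cells, among them Hbegf (adjusted p = 4.22e-04) in place of Erbb2 (0.0016), and 0 genes and 0 members in 67NR cells, where 3978 genes had an unadjusted p below 0.05. Between the vehicle-treated lines 3007 genes and 2 members were called with this covariate. Hbegf lost its call there (limma-voom adjusted p = 0.0032). In 67NR cells Areg held 1 to 9 counts per library and Tgfa 0 to 4 in all but sample 9 (26 counts), near the detection floor, and a change with CIX there could not be resolved at this depth.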

Other observations

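Each 4 consecutive sample numbers hold 1 sample of each group, although the labels do not say what such a set is, so that its treated and untreated samples can be set side by side as a description. In 4T1 cells Hbegf was higher after CIX in 4 of 4 sets, by 0.86 to 1.29 in log2(CPM + 1), Erbb2 in 4 of 4 by 0.65 to 1.09, Erbb3 in 4 of 4 by 0.44 to 1.44 and Tgfa in 4 of 4 by 0.40 to 1.00. Nrg1 was higher in 4 of 4 sets too, by 0.07 to 1.30, while Areg was lower in 3 of 4. In 67NR cells Btc was higher in 4 of 4 sets by 1.21 to 2.18, Hbegf by 0.17 to 0.69, Erbb3 by 0.49 to 0.75 and Ereg by 0.33 to 0.51. Nrg1 was lower there in 3 of 4 sets. Groups that do not overlap give 4 of 4 under any pairing, as for Hbegf, Tgfa, Erbb2 and Erbb3 in 4T1 cells. The same holds for Ereg, Btc and Erbb3 in 67NR cells. These counts repeat that separation, which 39.9% of all tested genes showed in 4T1 and 23.3% in 67NR cells.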
